A study of Mus musculus with 8 samples.

Results

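The genes described here are Pde4b, Zcwpw2, Zdhhc19, Gxylt2 and Ngfr, 5 of the 16940 genes in a table of nascent transcription from mouse embryonic stem cells. They were taken by gene symbol, and each symbol matched 1 row. They had been picked from these same measurements, because their nascent RNA was higher after the auxin IAA in the control line and because the forms of CTCF differed in how far the level came down again. Every comparison between the groups was therefore used in choosing them, and their values are given as a description, with no test. The choice had no numerical threshold.

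The cells were E14 mouse embryonic stem cells in which CTCF carries an auxin-inducible degron (CTCF AID), a tag that sends the protein for degradation when IAA is added. All 4 groups share this background, and each has 2 libraries. The first group is a control overexpression line without IAA, and the second is the same line after 12 hours of IAA. The third is a line overexpressing wild-type CTCF, with 12 hours of IAA, and the fourth a line overexpressing a mutated CTCF, with 12 hours of IAA. The labels name neither the mutation, the promoter that drives the overexpressed forms nor the number of clones. They do not say whether the 2 libraries of a group came from separate cultures. Each SE and p-value therefore measures only the spread between libraries. That spread is pooled over the 4 groups and drawn towards that of genes of like level. No IAA-treated cells without the degron and no untreated CTCF-overexpressing cells are among the groups, so IAA itself and loss of CTCF cannot be told apart, nor can the line and the CTCF form it carries. Transcription was measured by TT-seq, in which RNA made during 15 min is labelled with 400 µM 4-thiouridine, captured and sequenced. The values are normalized reads per gene, so levels are compared between groups for the same gene and not between genes. In bulk samples, fewer cells transcribing a gene and less RNA per cell cannot be told apart.

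CTCF binds DNA through a row of zinc fingers and stops the cohesin complex as it extrudes chromatin loops, which sets the borders of loops and domains within which enhancers meet promoters. Loss of CTCF from embryonic stem cells is known to alter the transcription of genes in either direction. The 5 genes have unrelated products. Pde4b encodes a phosphodiesterase that breaks down cyclic AMP. Zcwpw2 is a relative of Zcwpw1, a reader of histone marks laid down by Prdm9 in germ cells. Zdhhc19 encodes an enzyme that attaches palmitate to proteins, Gxylt2 encodes a xylosyltransferase that extends O-linked glucose on Notch receptors, and Ngfr encodes the p75 neurotrophin receptor.

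Depth ran from 15671114 to 21561141 reads per library, recovered from the normalized values, and the values of the 5 genes rest on 60 to 1315 reads. Pearson correlations of log2 values were 0.9949 to 0.9960 within groups and 0.9830 to 0.9898 between groups. The 2 wild-type CTCF libraries differed from each other the most, with a chi-square per degree of freedom of 3.07. It was 1.3 for the control without IAA, 1.38 for the control with IAA and 1.57 for mutated CTCF. All 7 stem cell markers looked at (Pou5f1, Nanog, Zfp42, Esrrb, Klf4, Tfcp2l1 and Tdgf1) were listed in the table, with a summed level of 49166 to 59811 normalized reads per library, whereas 0 of 5 fibroblast markers were listed. Markers of other lineages were listed in part, 4 of 5 for primitive endoderm, 1 of 4 for neural cells, 2 of 5 for neural crest and glia, 2 of 4 for trophoblast and 2 of 4 for formative or primed cells, and their levels are given beside Ngfr.

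On GRCm38 (GENCODE M21), Pde4b (ENSMUSG00000028525.16) lies on the plus strand at chr4:102087543-102607259, a gene body of 519717 bases. Zcwpw2 (ENSMUSG00000032443.17) lies on the minus strand at chr9:117876000-118040259. GENCODE M21 calls it a transcribed unprocessed pseudogene and RefSeq a protein-coding gene, and reads of it may be shared with related copies. Zdhhc19 (ENSMUSG00000052363.8) lies on the plus strand at chr16:32496265-32561966. Its RefSeq model is shorter, 10974 bases against 65702 in GENCODE. Gxylt2 (ENSMUSG00000030074.9) lies on the plus strand at chr6:100704734-100810913, and Ngfr (ENSMUSG00000000120.6) on the minus strand at chr11:95568818-95587735. None of the 5 overlaps another gene of the table in GENCODE M21. The 5 annotated genes that do overlap them have no row in the table. Gm26614 and Gm22008 lie on the strand opposite Zcwpw2. On the same strand as the gene they overlap lie Gm34680 in Zdhhc19, and Gm15576 and Gm19692 in Gxylt2. Gm34680 lies beyond the end of the RefSeq model of Zdhhc19. Whether reads of these 5 are counted in the values of Zcwpw2, Zdhhc19 and Gxylt2 was not tested.

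The promoters are shown because the 5 genes share a direction with IAA and differ in their response to the CTCF forms. Each window runs from 250 bases before to 50 after a start in RefSeq (GRCm38.p6), and all 5 genes were matched by symbol. Capitals mark the letters CCCTC and AGNNGGC on either strand, 2 short stretches found within the CTCF recognition sequence; where matches overlap they form 1 run of capitals. Pde4b has 4 windows in RefSeq, all of them inside the gene body and none at its annotated start, of which the first and the fourth along the gene are printed: window 1 at chr4:102421305-102421604 and window 4 at chr4:102589593-102589892, both plus strand. The others are Zcwpw2 at chr9:118040810-118041109 (minus strand), Zdhhc19 at chr16:32496031-32496330 (plus), Gxylt2 at chr6:100704484-100704783 (plus) and Ngfr at chr11:95587649-95587948 (minus).
Pde4b window 1: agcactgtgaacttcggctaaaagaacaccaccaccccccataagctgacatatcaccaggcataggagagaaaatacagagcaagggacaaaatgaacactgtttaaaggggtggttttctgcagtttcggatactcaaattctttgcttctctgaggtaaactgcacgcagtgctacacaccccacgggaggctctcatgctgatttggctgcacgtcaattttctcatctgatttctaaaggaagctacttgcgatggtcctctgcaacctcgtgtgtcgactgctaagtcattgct
Pde4b window 4: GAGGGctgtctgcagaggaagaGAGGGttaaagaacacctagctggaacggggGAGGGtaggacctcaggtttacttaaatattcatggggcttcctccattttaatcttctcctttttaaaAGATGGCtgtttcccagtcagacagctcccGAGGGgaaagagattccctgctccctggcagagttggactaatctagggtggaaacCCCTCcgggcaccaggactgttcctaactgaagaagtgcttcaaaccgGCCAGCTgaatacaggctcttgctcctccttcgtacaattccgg
Zcwpw2: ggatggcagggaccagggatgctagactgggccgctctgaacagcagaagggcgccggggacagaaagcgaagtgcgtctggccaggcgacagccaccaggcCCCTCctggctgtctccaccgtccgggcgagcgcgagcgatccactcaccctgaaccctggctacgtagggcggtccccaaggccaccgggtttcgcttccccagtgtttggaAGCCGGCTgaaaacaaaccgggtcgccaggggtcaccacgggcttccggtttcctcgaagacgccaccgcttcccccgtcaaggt
Zdhhc19: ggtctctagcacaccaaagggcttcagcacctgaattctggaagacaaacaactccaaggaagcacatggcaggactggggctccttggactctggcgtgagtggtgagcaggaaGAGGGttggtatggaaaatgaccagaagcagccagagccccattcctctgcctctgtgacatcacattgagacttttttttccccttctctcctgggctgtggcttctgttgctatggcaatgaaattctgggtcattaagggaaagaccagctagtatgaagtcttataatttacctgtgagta
Gxylt2: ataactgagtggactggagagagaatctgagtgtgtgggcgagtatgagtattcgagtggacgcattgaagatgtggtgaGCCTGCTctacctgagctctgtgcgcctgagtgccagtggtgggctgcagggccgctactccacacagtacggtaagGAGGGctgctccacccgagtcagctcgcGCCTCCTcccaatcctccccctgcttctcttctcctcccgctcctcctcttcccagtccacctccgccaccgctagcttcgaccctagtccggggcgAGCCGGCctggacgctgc
Ngfr: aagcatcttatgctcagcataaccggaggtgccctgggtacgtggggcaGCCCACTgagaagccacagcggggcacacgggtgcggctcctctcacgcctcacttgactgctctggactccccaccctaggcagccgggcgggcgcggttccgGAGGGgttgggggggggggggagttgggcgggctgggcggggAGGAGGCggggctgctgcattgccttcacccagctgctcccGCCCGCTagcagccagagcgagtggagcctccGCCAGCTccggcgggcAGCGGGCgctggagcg

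The windows differ in composition. GC content is 66.3% for Zcwpw2, 62% for Gxylt2 and 71.7% for Ngfr, with 25, 17 and 23 CG pairs, against a median of 52.7% and 7 CG pairs over 32851 promoter windows. Zdhhc19 has 49% GC and 1 CG pair, and the first Pde4b window has 47% and 8. CCCTC occurs once in the windows of Zcwpw2, Zdhhc19, Gxylt2 and Ngfr, and for Pde4b 0, 0, 1 and 5 times in windows 1 to 4; 66% of all promoter windows hold it at least once. AGNNGGC occurs 2 times for Zcwpw2, 3 times for Gxylt2 and 5 times for Ngfr, and 0 times for Zdhhc19, and for Pde4b 0, 0, 2 and 2 times in windows 1 to 4, with a share of 59.8% over all windows. Matches to GCGTG, the core recognised by the aryl hydrocarbon receptor with its partner, occur once each in window 1 of Pde4b, in Zdhhc19 and in Ngfr, against 32.4% of windows. TGACG, the core of the cyclic AMP response element, occurs once in window 1 of Pde4b and once in Zcwpw2, against 20.8% of windows, and TATAAA is in none of the windows printed, against 13.6%. All motifs were searched on both strands. A match is a string of letters and no evidence of binding.

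Pde4b, the cyclic AMP phosphodiesterase, had the largest difference with IAA of the 5. It measured 62.7 and 51.7 normalized reads in the 2 untreated control libraries and 762 and 705 in the control with IAA. With wild-type CTCF it measured 784 and 801, and with mutated CTCF 193 and 221. The treated control was 12.8-fold above the untreated one (733.7 ± 41 against 57.2 ± 7.8, SD, n = 2), a log2 difference of 3.66 (SE 0.099). The wild-type libraries lay above both control libraries with IAA, by 0.11 (SE 0.099) on the log2 scale, a difference close to its standard error that ranged from 0.06 to 0.17 over the alternatives. The mutated-CTCF libraries were 3.55-fold below the treated control (log2 difference −1.82, SE 0.099) and 3.83-fold below the wild-type libraries. They were still 3.62-fold above the untreated control. From low to high, the order was untreated, mutated, treated control and wild-type, and the last pair is the one whose spread nearly meets. Within the table, 5 of 15818 genes tested, Pde4b included, had an IAA difference at least as large.

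Zcwpw2 was the second largest. Its levels were 132.9 and 166 without IAA and 1402 and 1446 with it. They were 810 and 784 with wild-type CTCF and 1067 and 1051 with mutated CTCF. The 4 groups did not overlap, and each library lay nearer its own group mean than any other. The treated control was 9.52-fold above the untreated one (1424 ± 31 against 149.6 ± 24, SD, n = 2; log2 difference 3.25, SE 0.075). Wild-type CTCF libraries stood 1.79-fold below the treated control (−0.84, SE 0.075) and mutated ones 1.34-fold below it (−0.43, SE 0.075). Both lines stayed well above the untreated control, the wild-type libraries 5.33-fold and the mutated ones 7.08-fold.

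Zdhhc19, the palmitoyltransferase gene, measured 75.2 and 76.7 without IAA, 484 and 526 with IAA, 216 and 190.4 with wild-type CTCF, and 379 and 383 with mutated CTCF. These groups did not overlap either. The IAA difference was 6.64-fold (505 ± 30 against 76.0 ± 1.1, SD, n = 2; log2 difference 2.71, SE 0.10). Wild-type libraries were 2.48-fold below the treated control (−1.31, SE 0.10), and mutated ones 1.32-fold below (−0.40, SE 0.10). The difference between the 2 CTCF forms, 0.91 on the log2 scale (SE 0.10), was the widest of the 3 genes that were lower with the wild-type form.

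Gxylt2, the xylosyltransferase gene, measured 56.8 and 62.9 without IAA, 189.4 and 201 with it, 80.4 and 80.2 with wild-type CTCF, and 126 and 107 with mutated CTCF. The treated control was 3.26-fold above the untreated one (195 ± 8.4 against 59.9 ± 4.3, SD, n = 2; log2 difference 1.69, SE 0.15). Wild-type CTCF libraries were 2.43-fold below the treated control (−1.27, SE 0.15) and 1.34-fold above the untreated control (0.42, SE 0.15). Of the 5 genes this was the nearest return to the untreated level. Mutated CTCF libraries were 1.68-fold below the treated control (−0.74, SE 0.15), and the 2 mutated libraries differed from each other more than those of the other IAA-treated groups did (SD 14 against 8.4 and 0.14).

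Ngfr, the p75 receptor gene, fits the description of a gene switched up by IAA least well. It measured 177 and 188 without IAA and 312 and 256 with it, 362 and 372 with wild-type CTCF, and 271 and 260.0 with mutated CTCF. The treated control was 1.56-fold above the untreated one (284 ± 39 against 183 ± 7.6, SD, n = 2; log2 difference 0.63, SE 0.10), and 968 of the 15818 genes tested, or 6.12%, had an IAA difference at least as large. The wild-type libraries lay above the treated control, by 0.38 (SE 0.10; 0.23 without control with IAA replicate 2), and were 2.01-fold above the untreated control. The mutated libraries lay between the 2 treated control libraries, and their difference of −0.09 (SE 0.10) turned to 0.05 without control with IAA replicate 1. Neither form of CTCF therefore brought Ngfr below the range of the treated control.

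**Figure D1:**
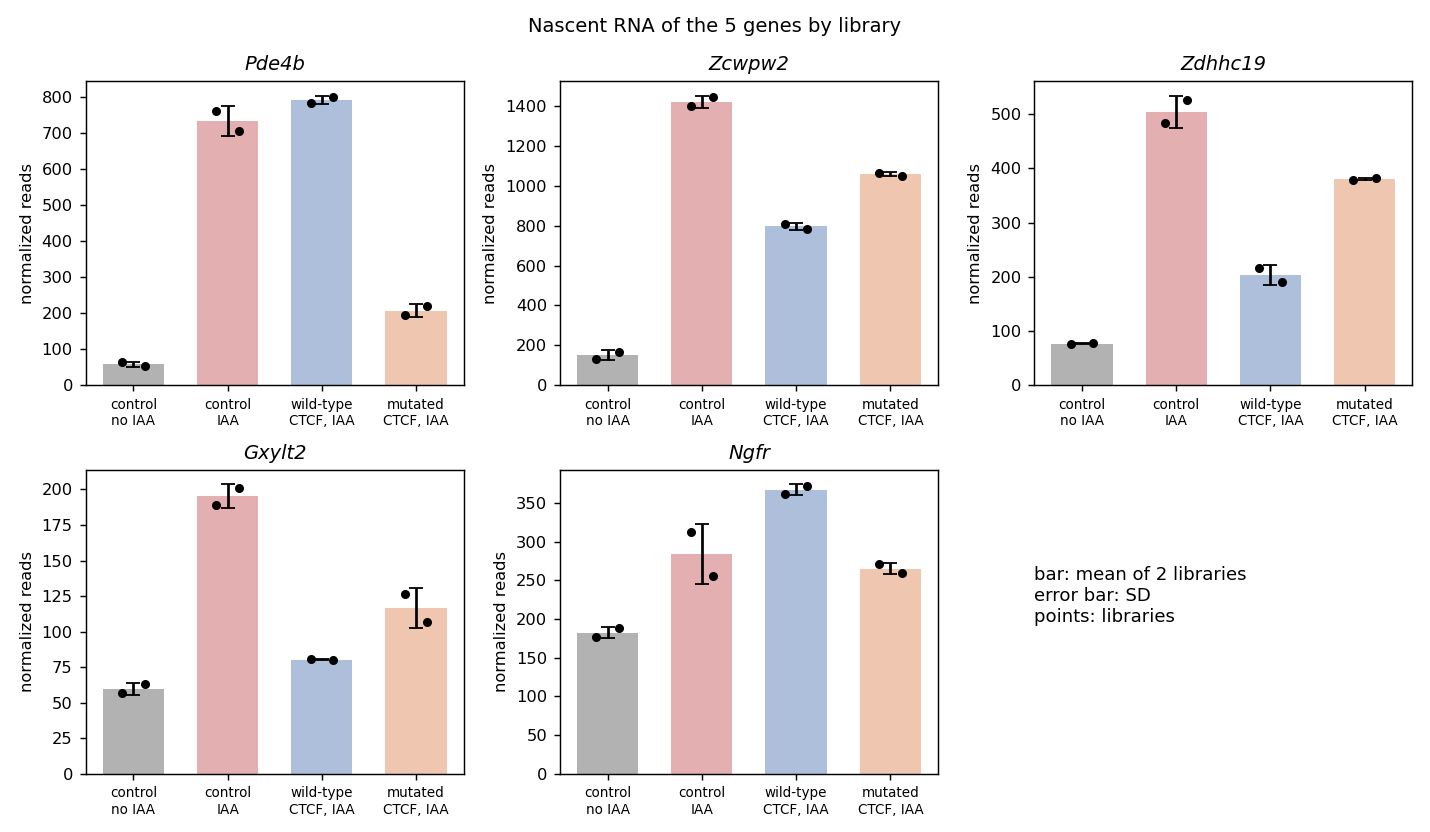
Normalized reads of each of the 5 genes (vertical axes, separate scale per gene, starting at 0) in the 4 groups; bars are means of 2 libraries, error bars are SD and points are libraries. Pde4b is low with mutated CTCF, at 193 and 221, and high with wild-type CTCF, at 784 and 801, while Zcwpw2, Zdhhc19 and Gxylt2 are lower with wild-type than with mutated CTCF.

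The level in each CTCF line was set on a scale from the untreated control, at 0%, to the treated control, at 100%. With wild-type CTCF, Gxylt2 kept 15.1% of its IAA difference (15.2% and 15.0% in the 2 libraries), Zdhhc19 29.7% (32.6% and 26.7%), and Zcwpw2 50.8% (51.9% and 49.8%). Pde4b stood at 109% (107.5% and 110.0%) and Ngfr at 182% (176.5% and 187%). With mutated CTCF, Pde4b kept 22.1% (20.1% and 24.1%), Gxylt2 41.9% (49.1% and 34.6%), Zdhhc19 71.1% (70.8% and 71.5%) and Zcwpw2 71.3% (71.96% and 70.7%). Ngfr stood at 81.4%, but its own treated control libraries spanned 72.5% to 127.5%. So the form with the lower level was the wild-type one for Gxylt2, Zdhhc19 and Zcwpw2, and the mutated one for Pde4b and Ngfr. All percentages share the 4 control libraries.

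**Figure D2:**
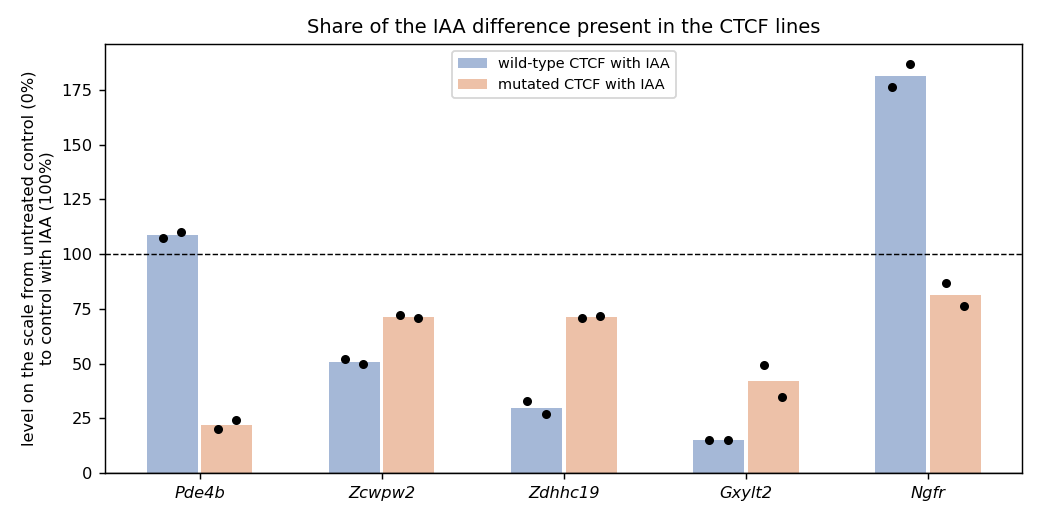
Level of each gene with wild-type or mutated CTCF (vertical axis, percent) on a scale from the untreated control (0%) to the control with IAA (100%, dashed line); bars are group means and points are the 2 libraries. Wild-type CTCF bars run from 15.1% for Gxylt2 to 182% for Ngfr and mutated bars from 22.1% for Pde4b to 81.4% for Ngfr.

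Counted over libraries, all 5 genes lay higher in both treated control libraries than in both untreated ones, where 34.3% of the 15818 genes tested did. Lower libraries with wild-type CTCF than in the treated control, without overlap, were found for 3 of the 5 (23.7% of all genes), and higher ones for 2 (40.6%). With mutated CTCF, 4 of the 5 were lower without overlap (25.0% of all genes) and Ngfr overlapped. Against the untreated control all 5 were higher with wild-type CTCF (42.8% of all genes) and with mutated CTCF (40.9%). Between the 2 forms, 3 of the 5 were higher with mutated CTCF (32.0% of all genes) and 2 lower (33.5%). The genes were chosen on these comparisons, so nothing is read from the counts. Across 18 other ways of processing the values, Pde4b ranged from 3.47 to 3.80 for the IAA effect on the log2 scale, Zcwpw2 from 3.09 to 3.41, Zdhhc19 from 2.58 to 2.77, Gxylt2 from 1.56 to 1.76 and Ngfr from 0.49 to 0.77.

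The patterns of the 5 genes over the 8 libraries were compared by the root mean square difference of their log2 profiles, each centred on its own mean. Zdhhc19 and Zcwpw2 were the closest pair, at 0.37, followed by Gxylt2 and Zdhhc19, at 0.52. Gxylt2 and Pde4b were the farthest apart, at 1.26. Among 11855 genes with a mean of at least 50, the 3 most like Pde4b were Cyp1a1 (0.51), Aox3 (0.52) and Ahrr (0.58). Cyp1a1 encodes a cytochrome P450 that is a classical target of the aryl hydrocarbon receptor, Ahrr the repressor of that receptor, and Aox3 an aldehyde oxidase. Mean levels in the order untreated, treated control, wild-type and mutated were 9.34, 152, 303 and 30.4 for Cyp1a1. They were 42.4, 246, 249 and 111 for Aox3, and 42.9, 200.4, 274 and 69.0 for Ahrr. Like Pde4b, all 3 had their lowest IAA-treated mean with mutated CTCF, and their mean with the wild-type form was not below that of the treated control.

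Zdhhc19 had the closest partner of the 3 genes that were lower with wild-type CTCF. Cobll1, a gene named for its likeness to the actin nucleator cordon-bleu, differed from it by 0.09, with means of 142, 917, 407 and 653 in the same order. The lincRNA Gm37933 was the second for Zdhhc19 (0.18) and the first for Zcwpw2 (0.27), with means of 37.4, 277, 121 and 186. The others were Gm13832 for Zdhhc19 (0.29), and Serpinb9, an inhibitor of granzyme B, and Cobll1 for Zcwpw2 (0.30 and 0.34). Gxylt2 was most like Sox5, an HMG-box transcription factor (0.18; means 95.0, 324, 167 and 190.1), Pou2f2, a POU-domain transcription factor (0.20), and Grb14, an adaptor of the insulin receptor (0.20). Ngfr was most like Bche, which encodes butyrylcholinesterase (0.09; means 153, 222, 311 and 209.8), Gss, glutathione synthetase (0.10), and Ckmt1, a mitochondrial creatine kinase (0.11). These lists were picked by likeness, so they carry no test. Over 11 other settings the 3 genes listed for Pde4b were the same in 10, those for Zcwpw2 in 10, those for Zdhhc19 in 7, those for Gxylt2 in 5 and those for Ngfr in 2.

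CTCF sets the borders of domains, so the genes next to the 5 were examined. The values of these neighbours played no part in the choice, and they were tested with limma, with p-values adjusted over all 15818 genes. Within 500 kb of the 5 starts lay the starts of 61 other genes of the table, of which 56 were tested. With IAA, 19 rose and 2 fell, 37.5% of those tested, against a background of 37.7% called over all genes (19.4% higher and 18.4% lower). Over all genes, 51.3% of the calls were higher on the deposited scale and 38.5% with equal library totals. The neighbours' median log2 change was 0.03 and the median over all genes was −0.00165. With wild-type CTCF against the treated control, 10 were higher and 11 lower, against 21.5% higher and 10% lower over all genes (31.6% called). With mutated CTCF, 7 were higher and 8 lower (22.0% and 12.4% of all genes, 34.3% called), and between the forms 12 were higher and 8 lower with mutated CTCF (16.3% and 18.4%, 34.7% called). These counts moved when a library was left out. With IAA, 11 rose without control without IAA replicate 1. With wild-type CTCF, 6 were higher without wild-type CTCF replicate 2. With mutated CTCF, 2 were lower without either treated control library or without mutated CTCF replicate 1, and 12 were higher without either wild-type CTCF library and 11 with the replicate number as a block. Median-of-ratios factors gave 14 lower there, and equal totals gave 6 lower with IAA. The background moved too. With IAA, 2905 of all genes were lower, against 1788 without control without IAA replicate 2. With wild-type CTCF, 1584 of all genes were lower on the deposited scale, 2513 with median-of-ratios factors and 933 without control with IAA replicate 2, and 3407 were higher, against 1961 without wild-type CTCF replicate 2 and 2212 without control with IAA replicate 1.

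Around Pde4b, whose own body is 519717 bases long, 3 neighbours within 500 kb were tested, all upstream since the gene fills the window downstream, and 0 passed in the IAA effect, in limma or in edgeR, with 1 at an unadjusted p under 0.05 in either. Within 1000 kb, 4 of 11 tested rose with IAA. The one at an unadjusted p under 0.05, Lepr, the leptin receptor gene 370 kb upstream, measured 81.1 and 68.1 without IAA and 108 and 86.9 with it (log2 change 0.38, limma adjusted p = 0.084). Lepr was named after its values were seen. The gene was lower in the wild-type libraries than in the treated control, at 61.2 and 67.4 (−0.59, limma adjusted p = 0.0088), and in the mutated libraries, at 62.7 and 73.2 (−0.51, limma adjusted p = 0.02), and both calls were lost without control with IAA replicate 1. Pde4b itself stood highest with the wild-type form.

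Around Zcwpw2, the neighbour with the nearest start was Azi2, which encodes an adaptor of the kinase TBK1 and faces the other way, 0.24 kb upstream (chr9:118040499-118069794, plus strand). It was named for its position, outside the naming rule. Azi2 measured 1245 and 1369 without IAA and 1248 and 1199 with it (log2 change −0.09, SE 0.055, limma adjusted p = 0.19), beside 9.52-fold for Zcwpw2. With wild-type CTCF it was at 1251 and 1338, and with mutated CTCF at 1307 and 1364, and neither passed against the treated control. RefSeq's start of Zcwpw2, at position 118040859, lies inside Azi2, so the ends of the 2 models overlap there on opposite strands. The libraries are strand-specific per the labels, and the strand setting of the counting is not given in the sources used here. Rbms3, an RNA-binding protein gene whose start lies 410 kb downstream, had the largest change with IAA of the neighbours tested within 500 kb. It rose from 23.4 and 20.7 to 94.1 and 86.9 (log2 change 1.99, SE 0.21, limma adjusted p = 1.8e-10). It stood at 47.2 and 52.4 with wild-type CTCF, below the treated control (−0.85, limma adjusted p = 0.0014), and at 53.3 and 66.2 with mutated CTCF (−0.60, limma adjusted p = 0.021; lost without either treated control library or without mutated CTCF replicate 1).

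The other named genes within 500 kb of Zcwpw2 had smaller IAA changes than Rbms3. Cmc1, a gene for a mitochondrial protein needed for cytochrome oxidase assembly, fell from 1517 and 1544 to 1284 and 1310 (log2 change −0.24, limma adjusted p = 0.00016) and was higher than that with both CTCF forms. The transcripts 2610509F24Rik and Platr11, which start 363 and 366 kb upstream, rose with IAA by 0.59 and 0.49 on the log2 scale (limma adjusted p = 0.01 and 0.0043), calls that were lost without 1 of the control libraries (control without IAA replicate 2 or control with IAA replicate 2 for the first, control without IAA replicate 1 or control with IAA replicate 2 for the second). Against wild-type CTCF, the mutated libraries were lower for both (−0.87 and −0.41, limma adjusted p = 0.00025 and 0.016; the second was lost without wild-type or mutated CTCF replicate 2). Eomes, a T-box gene of early lineage choice 438 kb upstream and named after its values were seen, measured 80.4 and 82.4 with wild-type CTCF against 58.4 and 38.5 in the treated control (0.77, limma adjusted p = 0.0054, lost without control with IAA replicate 2). With mutated CTCF Eomes stood at 38.7 and 54.4 and did not pass against the treated control (−0.05, limma adjusted p = 0.89). It was lower there than with the wild-type form (−0.81, limma adjusted p = 0.0027), where Zcwpw2 was higher.

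Around Zdhhc19, the nearest start was that of Slc51a, which encodes a subunit of a steroid and bile acid transporter and faces the other way, 8.39 kb upstream (chr16:32474504-32487879, minus strand). Slc51a rose from 21.7 and 14.7 to 48.8 and 77.0 (log2 change 1.72, SE 0.26, limma adjusted p = 9.9e-07). It was lower with wild-type CTCF, at 35.8 and 38.5 (−0.71, limma adjusted p = 0.035), and with mutated CTCF, at 30.3 and 48.4 (−0.66, limma adjusted p = 0.045), and both of those calls were lost without control with IAA replicate 2, among others. The difference between the forms was 0.04 (SE 0.26, limma adjusted p = 0.92), where that of Zdhhc19 was 0.91 (SE 0.10); the 2 were not tested against each other. Of the 19 tested neighbours of Zdhhc19 within 500 kb, 7 rose with IAA, 1 fell and 11 did not pass. Other named neighbours rose by smaller amounts than Slc51a: Tfrc, the transferrin receptor gene (0.32, limma adjusted p = 3.9e-09), Rubcn, an autophagy regulator (0.32, limma adjusted p = 0.00087), and Pcyt1a, an enzyme of phosphatidylcholine synthesis (0.24, limma adjusted p = 0.0022, lost without control without IAA replicate 1).

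Around Gxylt2, 2 of 7 tested neighbours rose with IAA. Ppp4r2, a regulatory subunit of protein phosphatase 4, rose from 5123 and 5500 to 6218 and 6174 (log2 change 0.22, limma adjusted p = 2.6e-06). Shq1, an assembly factor of small nucleolar ribonucleoproteins with its start 33.6 kb upstream on the other strand, rose from 2653 and 2722 to 2996 and 2888 (0.13, limma adjusted p = 0.012; lost without replicate 1 of either control group). Both were below the treated control in the wild-type libraries (−0.13 and −0.21, limma adjusted p = 0.0053 and 0.00011; the first was lost without control with IAA replicate 1), and both were higher with mutated than with wild-type CTCF, by 0.12 and 0.17 (limma adjusted p = 0.0063 and 0.0014; the first was lost without wild-type or mutated CTCF replicate 1). Rybp, a Polycomb-associated gene 417 kb upstream, had an IAA difference of 0.07 (limma adjusted p = 0.07) and was also lower with the wild-type form (−0.12, limma adjusted p = 0.0016). The other 4 tested neighbours of Gxylt2 passed in none of these comparisons, and their IAA differences ran in both directions.

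Around Ngfr, 7 of 19 tested neighbours rose with IAA and 12 did not pass. Nxph3, a neurexin ligand gene 73.2 kb downstream, rose from 14.2 and 12.9 to 33.4 and 39.6 (log2 change 1.36, SE 0.29, limma adjusted p = 0.00022), on few reads. The antisense transcript Gm11520, 277 kb downstream, rose from 247 and 233 to 367 and 360 (0.60, limma adjusted p = 8.5e-06). It stood at 344 and 335 with wild-type CTCF and at 259 and 196 with mutated CTCF, lower than with the wild-type form (−0.59, limma adjusted p = 1.5e-05), and Ngfr's own difference there was −0.47. Igf2bp1, an mRNA-binding protein gene (0.30, limma adjusted p = 4.4e-09), and Phb, prohibitin (0.30, limma adjusted p = 0.0015; lost without control without IAA replicate 1), rose as well. The nearest start was that of the lincRNA Gm11528, 34.9 kb upstream, at 64.4 and 61.2 without IAA and 52.4 and 56.1 with it (−0.21, limma adjusted p = 0.35). Gm11528 was higher with wild-type CTCF, at 117 and 115.5 (1.09, limma adjusted p = 2.7e-06), and with mutated CTCF, at 83.6 and 103 (0.76, limma adjusted p = 0.00038). B4galnt2, 327 kb upstream and named after its values were seen, was lower with wild-type CTCF, at 126 and 125 against 202.5 and 190.3 (−0.64, limma adjusted p = 2.6e-05). With mutated CTCF it stood at 220.5 and 236 and did not pass against the treated control (0.22, limma adjusted p = 0.14). It was higher there than with the wild-type form (0.86, limma adjusted p = 9.9e-08), where Ngfr was lower.

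**Figure D3:**
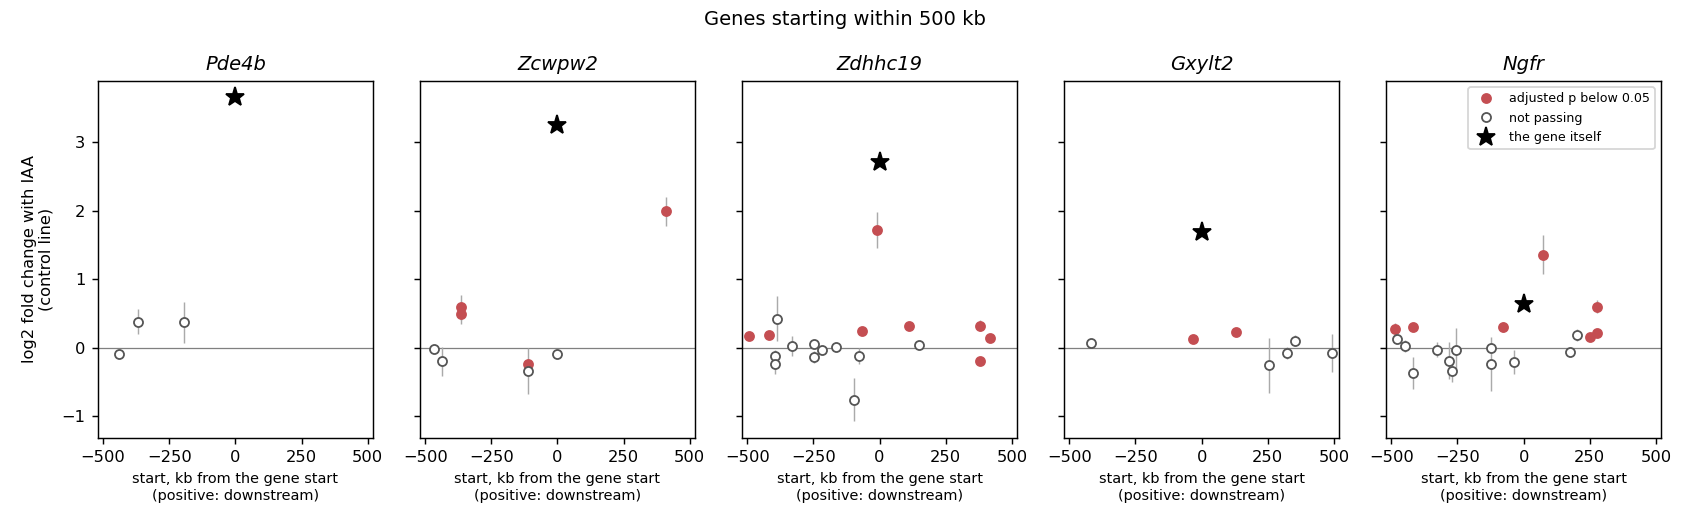
Log2 fold change with IAA in the control line (vertical axis, error bars are SE) against the distance of each neighbour's start from the start of the gene (horizontal axis, kb, downstream positive) for the 56 tested neighbours. Filled points passed an adjusted p of 0.05, open ones did not, and stars are the 5 genes; Rbms3 at 1.99, Slc51a at 1.72 and Nxph3 at 1.36 stand above the other neighbours.

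Genes that work with the 5 were taken from lists by function and tested in the same fit, with the same background of 37.7% called for the IAA effect. Of 16 tested cyclic nucleotide phosphodiesterases other than Pde4b, 2 rose with IAA, 2 fell and 12 did not pass, with a median log2 change of −0.06 against −0.00165 over all genes. The number that fell was 5 with equal library totals and 4 in edgeR or without control with IAA replicate 2. Of the other members of the Pde4 subfamily, Pde4d rose by 0.17 (5481 ± 120 to 6180 ± 170, SD, n = 2, limma adjusted p = 7.6e-05). Pde4a, at 124.6 and 148 (limma adjusted p = 0.17), and Pde4c, at 43.3 and 33.4 (limma adjusted p = 0.19), did not pass. With mutated against wild-type CTCF, Pde4d was lower (−0.47, limma adjusted p = 2.9e-14), as Pde4b was, but Pde4c was higher (1.31, limma adjusted p = 1.6e-05). Pde8a, specific for cyclic AMP, rose by 0.28 (limma adjusted p = 3.8e-09). Pde5a, specific for cyclic GMP, fell from 704 ± 33 to 256 ± 3.1 (SD, n = 2; −1.45, limma adjusted p = 5.3e-18) and was higher again with wild-type CTCF, at 436 ± 31 (0.76, limma adjusted p = 1.5e-09). Pde3b fell by 0.84 on the log2 scale (limma adjusted p = 5.4e-12).

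Of 25 tested genes of cyclic AMP synthesis and response, 11 rose with IAA, 3 fell and 11 did not pass (median 0.14); 7 rose without control with IAA replicate 2, and 7 without control without IAA replicate 2. Crtc1, a coactivator of the factor CREB, rose by 0.45 (limma adjusted p = 0.00011), Prkar2a, a regulatory subunit of protein kinase A, by 0.43 (limma adjusted p = 3.4e-10), and the adenylate cyclase gene Adcy5 by 0.41 (limma adjusted p = 0.043). Rapgef3, an exchange factor activated by cyclic AMP, had a log2 change of −0.88 (limma adjusted p = 5.6e-05), whereas its paralogue Rapgef4 rose by 0.70 (limma adjusted p = 0.0086; lost without replicate 2 of either control group). Log2 changes were below 0 for the cyclase gene Adcy3 (−0.30, limma adjusted p = 0.0012) and for Prkacb, a catalytic subunit of protein kinase A (−0.11, limma adjusted p = 0.041). The calls of Adcy5 and Prkacb were lost without control without IAA replicate 2 or either treated control library, and that of Adcy5 also without control without IAA replicate 1. With mutated CTCF against the treated control, 5 of the 25 were higher and 10 lower, where 22.0% of all genes were higher and 12.4% lower. The 5 higher became 0 without control with IAA replicate 2, 2 without mutated CTCF replicate 2, and 3 without replicate 1 of either group. They also became 3, with 11 lower, with median-of-ratios factors, with equal totals and in edgeR, and 0, with 8 lower, without the mean-variance trend of the limma fit. Among the lower genes were Adcy5 (−0.85, limma adjusted p = 5.4e-05) and Crtc1 (−0.41, limma adjusted p = 0.00042).

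Of 22 tested neurotrophins, receptors and adaptors other than Ngfr, 6 rose, 4 fell and 12 did not pass (median −0.06). The receptor kinase gene Ntrk2 was at 41.2 without IAA and 36.6 with it (limma adjusted p = 0.61). Ntrk3, another receptor kinase, rose by 0.20 (4715 ± 87 to 5401 ± 43, SD, n = 2, limma adjusted p = 1.6e-05), and Lingo1, a p75 partner in neurons, by 0.79 (limma adjusted p = 0.00016). Arhgdia and Maged1, whose products can bind p75, each rose by 0.44 (limma adjusted p = 1.1e-05 and 0.00022; the Maged1 call was lost without control without IAA replicate 1). Traf6, a ubiquitin ligase downstream of the receptor, fell from 751 ± 32 to 289 ± 4.1 (SD, n = 2; −1.37, limma adjusted p = 4.3e-19) and measured 673 ± 18 in the wild-type libraries and 474 ± 4.4 in the mutated ones. Bdnf, another neurotrophin, fell by 1.11 on the log2 scale (limma adjusted p = 1.4e-06), and the sorting receptor gene Sorl1 by 0.27 (limma adjusted p = 9.6e-08). Sort1, the sortilin co-receptor gene, had a change of −0.22 (limma adjusted p = 0.032), lost without any 1 of the 4 control libraries.

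Ngfr is also a marker of neural crest and glia. Of 5 such markers 2 were listed, Tfap2a and Snai2, while the defining markers Sox10 and Pax3 were not. The summed level of the 2 was 117 and 114 without IAA, 183 and 173 with it, 160 and 133 with wild-type CTCF and 145 and 103 with mutated CTCF. The higher sum in the treated control was that of Tfap2a, with means of 98.0 without IAA and 159.5 with it, while Snai2 was at 17.4 and 18.6. Unlike Ngfr, the sum was not highest with wild-type CTCF. Of 5 primitive endoderm markers 4 were listed, with sums of 195 and 228 without IAA and 331 and 269.5 with it, 233 and 262 with wild-type and 259 and 256 with mutated CTCF. Its members went different ways with IAA, in means from 77.4 to 51.1 for Gata6, 104 to 164 for Gata4, 19.1 to 67.8 for Pdgfra and 10.2 to 16.9 for Dab2; Sox17 was not listed. The 2 listed trophoblast markers, of 4, summed to 554 to 568 without IAA and 609 to 642 with it, to 807 and 896.5 with wild-type CTCF and to 573 and 601 with mutated CTCF. The 2 listed formative or primed markers, of 4, summed to 542.5 and 558, 674 and 682, 711 and 794, and 622 and 606 in the order of the groups. Here Dnmt3b had means of 478 without IAA and 627 with it, and Otx2 of 72.5 and 51.6. Like Ngfr, both the trophoblast sum and the formative or primed sum were highest with wild-type CTCF. Most of these sums came from 1 gene each. Tfap2c had means of 611 in the treated control and 837.5 with wild-type CTCF, while Krt7 was at 14.9 and 14.2. Dnmt3b stood at 683 with wild-type CTCF, but Otx2, at 69.4, was below its untreated mean. The stem cell marker sum was also highest there (56497 and 59811), though its libraries overlapped those of mutated CTCF (56252 and 58725). The neural marker Pax6 lay between 3.13 and 19.2 in every library. The part of any of these in the levels of the 5 genes was not tested.

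Of 21 tested genes in a list of DHHC palmitoyltransferases and their accessory protein Golga7, Zdhhc19 left out, 2 rose with IAA, 5 fell and 14 did not pass (median −0.02). Zdhhc1 rose from 94.2 ± 2.1 to 147 ± 7.5 (SD, n = 2; 0.64, limma adjusted p = 0.00031) and Zdhhc2 from 956 ± 2.0 to 1206 ± 21 (0.34, limma adjusted p = 2e-05). Zdhhc1 was below the treated control in the wild-type libraries (−0.45, limma adjusted p = 0.012, lost without control with IAA replicate 1 or wild-type CTCF replicate 1) and stood at 149 with mutated CTCF. Zdhhc2 was below the treated control with the wild-type form (−0.45, limma adjusted p = 1.7e-07) and with the mutated form (−0.52, limma adjusted p = 6.3e-09). Zdhhc24 (−0.57, limma adjusted p = 0.00072), Zdhhc18 (−0.37, limma adjusted p = 4.5e-05) and Zdhhc6 (−0.30, limma adjusted p = 1.7e-05) fell.

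Of 17 tested genes in a list of Notch O-glycosylation enzymes, Notch receptors and Notch ligands, Gxylt2 left out, 6 rose, 4 fell and 7 did not pass (median −0.10); 2 fell without control with IAA replicate 1 and 7 with equal library totals. Of the 4 ligands in it, Jag1, Jag2, Dll1 and Dll3, the last rose (1.32, limma adjusted p = 0.0059), on few reads, a call lost without replicate 1 of either control group. Gxylt1, which carries out the same reaction as Gxylt2, was at 1269 ± 65 without IAA and 1122 ± 67 with it (SD, n = 2; −0.18, limma adjusted p = 0.0091, lost without control without IAA replicate 2 or control with IAA replicate 1). Xxylt1, which adds the next xylose, rose by 0.17 (limma adjusted p = 0.0018). Of the enzymes that add the first sugars, Poglut1 (−0.41, limma adjusted p = 3.3e-08) and Poglut2 (−0.46, limma adjusted p = 3.7e-05) fell. Poglut3 had a change of 0.24 (limma adjusted p = 0.047), lost without any 1 of the 4 control libraries. Eogt rose by 0.49 (limma adjusted p = 1.8e-06) and was lower with wild-type CTCF (−0.53, limma adjusted p = 6.3e-07). Rfng, a fringe enzyme, rose by 1.00 (limma adjusted p = 0.00026). Against the treated control it passed neither with wild-type CTCF (0.19, limma adjusted p = 0.54) nor with mutated CTCF (−0.12, limma adjusted p = 0.71). Of the receptor genes, Notch2 rose by 0.20 (limma adjusted p = 0.00049), Notch1 and Notch4 did not pass, and Notch3 fell by 0.29 (limma adjusted p = 0.0065, lost without control without IAA replicate 2 or control with IAA replicate 1). Notch2 was below the treated control with wild-type CTCF (−0.19, limma adjusted p = 0.001) and with mutated CTCF (−0.20, limma adjusted p = 0.00045). Notch1 and Notch4 were above it with wild-type CTCF (0.41 and 0.63, limma adjusted p = 4.8e-06 and 0.0019), and Notch3 did not pass (0.03, limma adjusted p = 0.79). With mutated CTCF, Notch1 was lower, close to the threshold (−0.16, limma adjusted p = 0.049). Notch3 and Notch4 did not pass there (0.19 and −0.25, limma adjusted p = 0.073 and 0.22).

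Of 7 tested CW-domain genes and Prdm9, other than Zcwpw2, 1 fell, 0 rose and 6 did not pass in limma (median −0.03); edgeR gave the same counts, and 0 rose and 2 fell at an unadjusted p under 0.05. The gene that fell was Morc1, a silencer of transposons in the germ line (9206 ± 90 to 7138 ± 24, SD, n = 2; −0.37, limma adjusted p = 9.9e-13). Zcwpw1 was at 267 and 228 (−0.23, limma adjusted p = 0.10), and Prdm9 at 93.4 and 91.4 (−0.03, limma adjusted p = 0.90). Zcwpw1 was higher with mutated than with wild-type CTCF (0.51, limma adjusted p = 0.0003), and Zcwpw2 was higher by 0.41. In that comparison 2 of the 7 genes were higher and 3 lower, where 16.3% of all genes were higher and 18.4% lower (34.7% called). The lower ones were Morc4 (−0.66, limma adjusted p = 0.00029), Kdm1b (−0.23, limma adjusted p = 0.008, lost without wild-type CTCF replicate 2 or mutated CTCF replicate 1) and Morc1 (−0.16, limma adjusted p = 0.00012).

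Some of the IAA calls above depended on the model or scale. Without the mean-variance trend, 12 of the neighbours within 500 kb rose, 7 genes of the cyclic AMP list, 3 of the neurotrophin list and 3 of the Notch list. The calls of Adcy5, Arhgdia, Gxylt1, Maged1, Pcyt1a, Phb, Platr11, Poglut3, Prkacb, Rfng, Shq1, Sort1 and Xxylt1 were lost in that fit. With equal library totals, those of Adcy5, Poglut3 and Shq1 were lost, and Azi2 and Zcwpw1, both lower with IAA, passed.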

How the data were processed

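TT-seq values of 8 libraries in 4 groups of 2 were used. The authors deposited normalized counts per gene (a signal, read counts divided by 1 factor per library); Trim Galore, STAR, featureCounts, DESeq2 and the build mm10 are named in the submitters' processing notes, with versions not given in the sources used here. Within 0.05 reads, 100% of the values in each library were whole multiples of 1 step, which gave the reads; for mutated CTCF replicate 2 this rests on the present calculation alone, since its step lies close to 1.

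Values were tested with limma 3.58.1 (R 4.3.3) on log2(value + 1), 1 coefficient per group over all libraries, with a mean-variance trend; a scale that understates the change of low genes. Genes with a mean of at least 10 were tested (15818), with Benjamini-Hochberg adjustment over them per comparison, two-sided, and a threshold of 0.05. A fold is a ratio of group means. Because the spread is pooled over groups, the limma SE and p-values do not reflect the wider spread of the wild-type CTCF pair alone. The fit was checked on simulated data. edgeR 4.0.16 on the recovered reads was an alternative, beside other pseudocounts, filters, scalings, designs and left-out libraries.

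The 5 genes and the 6 gene lists were chosen with earlier results of these data known. Named neighbours were up to 4 per gene past the threshold with IAA or between the CTCF forms, by size of IAA change; named list genes were up to 3 highest and 3 lowest with IAA among those past the threshold with a mean of at least 50; the 3 most like genes are by profile. Lepr, Eomes, B4galnt2, Dll3, Morc4, Kdm1b, Rapgef4 and Notch2 were named after their values were seen, and Pde4a, Pde4c, Azi2, Gm11528, Zcwpw1, Prdm9, Gxylt1, Xxylt1, Ntrk2, Ntrk3 and Sort1, outside the rule, for kinship, function or position, with their values in view. Some members of the lists are not reported by name here. GENCODE M21 held 16917 of the IDs, 16418 with the same version. Across genes, the deviations of same-numbered replicates were hardly correlated (−0.0218 to 0.0282). Such a correlation drops any offset of a whole library. In all 4 groups the median-of-ratios factor was larger for replicate 2 than for replicate 1. The factors were 0.978 and 0.9966 for the control without IAA, and 0.976 and 0.9957 for the control with IAA. They were 1.007 and 1.044 for wild-type CTCF, and 1.007 and 1.036 for mutated CTCF. Whether the numbers pair samples is therefore not decided.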

Additional observations from a re-analysis of the deposited data

How the results depend on the processing

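The log2 differences of the 5 genes kept their direction under 18 alternatives in all 6 comparisons but 1, Ngfr with mutated CTCF against the treated control, which ranged from −0.23 to 0.05. Without the mean-variance trend, fewer genes passed: 3946 for the IAA effect (5967 with it), 2379 for wild-type CTCF against the treated control (4991), 3228 for mutated CTCF (5433), 3263 for mutated against wild-type CTCF (5489) and 3869 for mutated CTCF against the untreated control (5975). For wild-type CTCF against the treated control, leaving out 1 library gave 3274 (without wild-type CTCF replicate 2) to 5079 genes. Neighbours past the threshold with IAA numbered 8 of 23 within 250 kb and 40 of 98 within 1000 kb; these windows hold fewer and more genes by construction. With the replicate number as a replicate block, 6423, 5532, 5920, 5981, 7237 and 6397 genes passed for IAA, wild-type and mutated CTCF against the treated control, mutated against wild-type, and wild-type and mutated CTCF against the untreated control; correlations of same-numbered deviations were −0.0218 to 0.0282. edgeR passed 6517, 4988, 5233, 6094, 7436 and 6310 genes in the same order. Scaling moved the share of higher calls: for IAA 51.3% became 38.5% with equal totals, for wild-type CTCF 68.3% became 50.3% with median-of-ratios factors, and for mutated CTCF 63.9% became 50.2%; against the untreated control, 64.0% and 63.6% became 45.5% and 43.1% with equal totals. Of the other named genes' values under the alternatives, 4183 kept their side of the threshold, 192 lost it and 65 gained it, causes not tested. The genes most like Ngfr changed most, with 0 to 3 of 3 still listed. Values near 10 normalized reads rest on few reads.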
